A study of Mus musculus with 41 samples.

Results

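TET iTKO Th2 cells were sequenced after the first and after the second cycle of culture, and the change between the cycles was followed at the *Il4* locus to ask whether methylation was still lost after deletion of the *Tet* genes. These are 4 of the 41 samples of the series, chosen by their labels: the BS-seq libraries of TET iTKO cells, 2 from each cycle. The study measured cytosine modification by amplicon sequencing at *Il4*, the gene of the Th2 cytokine IL-4, in naïve CD4+ T cells and in Th2 cells that were WT or had the *Tet* genes or *Tdg* deleted.

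All cells came from the spleen and lymph nodes of C57BL/6 mice of 8 to 16 weeks. TET iTKO cells carried floxed alleles of all 3 *Tet* genes, *CreERT2* and a fluorescent reporter behind a floxed stop. Tamoxifen was given for 5 days to induce deletion, and the control mice were injected as well. The sort for naïve cells (CD25−, CD62L high, CD44 low) also required the reporter, according to the methods, which marks Cre activity rather than the loss of each floxed exon. The amplicons hold no *Tet* exon and the deposited files no expression values, so neither the deletion nor the Th2 identity of the cells could be checked from them. The methods give a deletion, by qRT-PCR after the first cycle, of 96% for *Tet1*, 80% for *Tet2* and 96% for *Tet3*. The labels give the treatment as none for all groups used here. For the first cycle, cells were stimulated for 2 days by anti-CD3 and anti-CD28 coated on the plate, together with IL-4 (1000 U/ml) and anti-IFN-γ (antibodies at 1 µg/ml) and then grown in IL-2 (20 U/ml). The labels give 3 days of IL-2 and the methods 4 days. For the second cycle, cells were rested for 1 day without cytokine, stimulated again for 1 day under the same conditions and grown in IL-2 for 4 days. For comparison, 4 libraries of WT cells of the TET line (2 from each cycle, labelled wild type, same culture) and 3 libraries of naïve CD4+ T cells, also labelled wild type, were used. The series has no naïve TET iTKO sample. WT and TDG iKO cells of the TDG line were set beside them for a few values. For its estimate of spread the model also used 3 first-cycle BS-seq libraries titled only as Th2.

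DNA methylation at CpGs is copied onto the new strand after replication by the maintenance methyltransferase DNMT1 with its partner UHRF1, so that methylation which is not copied is diluted as cells divide. TET proteins oxidise 5mC to 5hmC, 5fC and 5caC. In BS-seq 5mC and 5hmC are read as C, whereas unmodified C, 5fC and 5caC are read as T, so the level given here, C as a percentage of the C and T calls at a CpG, is the sum of 5mC and 5hmC. HSII is an enhancer within *Il4*, CNS1 and CNS2 are regulatory elements on either side of the gene, and exon 3 is a part of the gene body.

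The 64 CpGs were numbered from CNS1 to CNS2 in the direction of *Il4* transcription, on the minus strand of chromosome 11 (mm9). The median number of reads per CpG was 952 in first-cycle replicate 1, 3999 in first-cycle replicate 2, 551.5 in second-cycle replicate 1 and 3502.5 in second-cycle replicate 2. By the median replicate 2 was thus deeper in both cycles, and 9 CpGs of each replicate 2 reached the upper limit of the deposited counts. In the 3′ region of HSII the reads per CpG were 597 to 634, 1600 to 1950, 1888 to 1959 and 1331 to 1457 in the same order, and the 95% Wilson interval of a single value there was at most 7.76 points wide. Such intervals hold the error of counting alone, since copies of a molecule made by PCR were not told apart. At cytosines outside CpGs, 0.258%, 0.241%, 0.236% and 0.223% of reads had C, and at the 20 such cytosines of the HSII amplicon the shares were 0.239%, 0.157%, 0.182% and 0.174%. Unconverted C thus added well under 1 point in every library. Of the 64 CpGs, 60 had at least 100 reads in all 4 libraries and were tested. CpG23 in exon 1 and CpGs 62, 63 and 64 in CNS2 were not tested, because they had 20 to 69 reads in the replicate 1 libraries.

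From the first to the second cycle, methylation fell in TET iTKO cells at every CpG of the 3′ region of HSII and at 2 CpGs in intron 1 and exon 2. Of the 60 CpGs tested, 7 were called lower after the second cycle (11.7%, adjusted p under 0.05, quasi-binomial model) and 0 were called higher (0%). At an unadjusted p under 0.05 there were 9 lower and 2 higher, and limma on log2 ratios called 9 lower and 0 higher. The 7 called CpGs were CpGs 38 to 42, which are all 5 of the HSII amplicon, CpG32 and CpG36. The mean over CpGs 38 to 42 was 77.2% and 73.5% in the first-cycle libraries and 38.8% and 42.2% in the second-cycle libraries. Both second-cycle libraries were far below both first-cycle libraries, and the mean fell by 34.8 points ± 3.54 (combined SD, n = 2 libraries per cycle), from 75.3% ± 2.63 to 40.5% ± 2.37. An exact permutation test of these means gave p = 0.333, two-sided, the smallest that 2 libraries against 2 allow. Outside this amplicon the median change over the other 55 CpGs tested was −0.718 points, with values from −14.3 points at CpG36 to 13.02 points at CpG19.

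**Figure D1:**
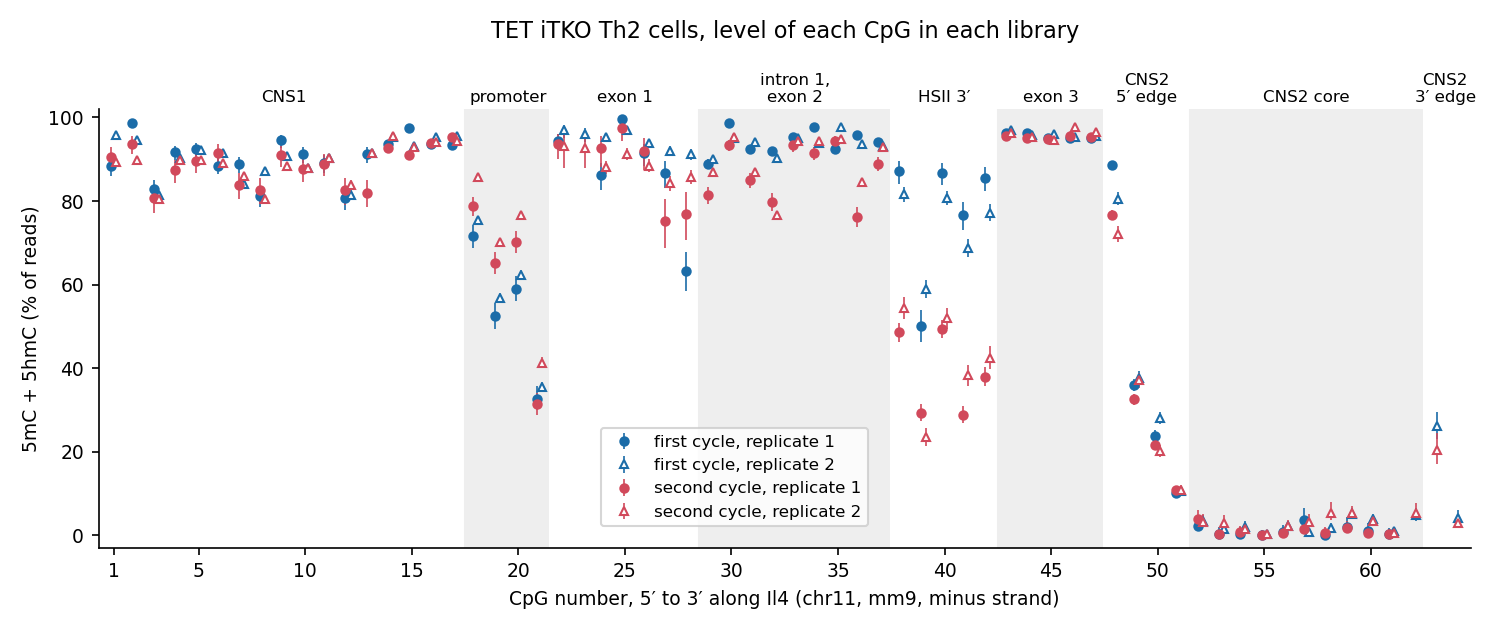
Level of 5mC + 5hmC (percentage of reads, vertical axis) at each CpG with at least 100 reads (horizontal axis, CpG number in the direction of transcription) in each of the 4 TET iTKO libraries. Filled circles are replicate 1, open triangles replicate 2, blue the first and red the second cycle, and bars are 95% Wilson intervals. Only in the 3′ region of HSII do all CpGs lie 28.1 to 41.1 points lower after the second cycle on average.

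CpG38, the first CpG of the HSII amplicon, had 87.1% and 81.6% of C in the first-cycle libraries and 48.5% and 54.5% in the second-cycle libraries. It fell by 32.8 points ± 5.73 (adjusted p = 4.41e-05). The libraries of each cycle were close together and those of different cycles were far apart. CpG40 behaved in the same way, with 86.6% and 80.8% after the first cycle and 49.3% and 52.0% after the second, and fell by 33.0 points ± 4.52 (adjusted p = 4.41e-05). CpG39, only 11 bases away from CpG40, started from a lower level. Its values were 50.2% and 58.9% after the first and 29.3% and 23.5% after the second cycle. It fell by 28.1 points ± 7.42 (adjusted p = 0.000304), the smallest change in points within the amplicon, and it was the lowest of these CpGs in naïve cells too. CpG41 had 76.6% and 68.8% and then 28.9% and 38.3%, and fell by 39.1 points ± 8.63 (adjusted p = 0.00022). CpG42 had 85.5% and 77.2% and then 37.98% and 42.5%, and fell by 41.1 points ± 6.65 (adjusted p = 4.41e-05). These last 2 CpGs thus moved the most in points, and at none of the 5 CpGs did the libraries of the cycles overlap. Such a lack of overlap was common with 2 libraries per cycle. It was found at 29 of the 60 CpGs tested, 23 of them lower after the second cycle. Relative to the level after the first cycle, 61.1% was left at CpG38, 60.5% at CpG40, 49.5% at CpG42, 48.4% at CpG39 and 46.2% at CpG41. For the amplicon mean 53.7% was left, with 50.3% as the lowest and 57.4% as the highest over the 4 ways to pair a second-cycle with a first-cycle library. The calls of these 5 CpGs were made under each of 9 other settings without a block, with adjusted p from 4.41e-05 to 0.0121. With a block for the replicate number, fitted to these 4 libraries alone, 0 of the 60 CpGs were called (smallest adjusted p = 0.315), while 7 had an unadjusted p under 0.05.

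The HSII amplicon lies in intron 2 of *Il4* at chr11:53430150-53430347 (mm9, minus strand). It is shown because it carries 5 of the 7 CpGs called, and exon 3 is shown beside it as the neighbouring amplicon, at chr11:53427375-53427537 (mm9, minus strand), where no CpG was called. Capitals mark the CpGs, which are CpGs 38 to 42 in the first and CpGs 43 to 47 in the second sequence.
3′ region of HSII: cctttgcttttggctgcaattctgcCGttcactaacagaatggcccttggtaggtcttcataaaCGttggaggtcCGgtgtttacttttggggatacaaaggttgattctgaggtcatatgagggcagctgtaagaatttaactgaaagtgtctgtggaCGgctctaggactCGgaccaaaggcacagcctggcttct
Exon 3: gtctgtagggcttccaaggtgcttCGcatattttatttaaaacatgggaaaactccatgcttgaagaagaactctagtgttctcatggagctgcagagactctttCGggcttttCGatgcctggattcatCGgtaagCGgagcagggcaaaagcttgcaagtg
Both amplicons are of similar composition, with 2.53 CpGs per 100 bp and 47.98% GC in the HSII amplicon and 3.07 CpGs per 100 bp and 46.6% GC in that of exon 3. The letters GATA occur once in the HSII amplicon when both strands are searched and 0 times in that of exon 3. CNS1 holds 1, the promoter 2, exon 1 as well as intron 1 with exon 2 hold 3 each, and CNS2 holds 8. These counts say nothing on binding. CpGs 38 to 42 span 147 bp. The nearest measured CpG upstream, CpG37 at the end of exon 2, lies 1354 bp from CpG38, and the nearest downstream, CpG43 in exon 3, lies 2662 bp from CpG42, so the borders of the region that fell were not resolved. CpG37 had 94.1% and 93.2% after the first and 88.97% and 92.9% after the second cycle (−2.75 points ± 2.83, adjusted p = 0.848). CpG43 had 96.2% and 96.99% and then 95.5% and 96.3% (−0.661 points ± 0.821, adjusted p = 0.98). Neither neighbour was called, and the levels of CpG43 overlapped between the cycles.

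In the amplicon of intron 1 and exon 2, 2 of the 9 CpGs were called and all 9 had a lower mean after the second cycle. A lower mean was not particular to this amplicon. It was found at 45 of the 60 CpGs tested, among them 14 of the 17 in CNS1. CpG36 in exon 2 had 95.8% and 93.5% in the first-cycle libraries and 76.2% and 84.6% in the second-cycle libraries, and fell by 14.3 points ± 6.12 (adjusted p = 0.0037). CpG32 in intron 1 had 91.9% and 90.3% and then 79.8% and 76.6%, and fell by 12.9 points ± 2.54 (adjusted p = 0.0164). The libraries of the cycles did not overlap at either CpG, which held for 24 of the 55 CpGs tested outside HSII. Both changes were smaller than any in the HSII amplicon. CpG36 lay at position 53431690 and CpG32 at 53431800, with CpGs between them that were not called. Their surroundings are shown, with the CpG in capitals, because they are the only called CpGs outside HSII (mm9, minus strand).
CpG32, chr11:53431789-53431810: gggagtctccCGggtggggggt
CpG36, chr11:53431679-53431700: atgtgccaaaCGtcctcacagc
These calls rested on single libraries more than those in HSII did. With each library left out in turn, the change in log odds at CpG32 was −1.15 to −0.950, beside −1.05 with all libraries. At CpG36 it was −1.71 to −1.17, beside −1.45 with all libraries. Without first-cycle replicate 1 the adjusted p was 0.0523 for CpG36 and 0.113 for CpG32, and without second-cycle replicate 1 it was 0.105 for CpG36. CpG32 was also not called without first-cycle replicate 2 (adjusted p = 0.0507), without second-cycle replicate 2 (0.153), or with only TET iTKO cells in the fit (0.0733). CpG31, next to CpG32, had 92.4% and 94.2% and then 85.0% and 86.9%, with adjusted p = 0.138 in the quasi-binomial model and 0.0388 with limma; it was named after its values were seen. The mean of the amplicon was 94.1% and 93.7% in the first-cycle and 87.1% and 89.7% in the second-cycle libraries (−5.51 points ± 1.82, exact permutation test, p = 0.333). CpG29, the first CpG of intron 1 in this amplicon, had 88.9% and 90.04% and then 81.4% and 87.0% (adjusted p = 0.662).

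CNS1 stayed highly methylated in both cycles. Its mean over 17 CpGs was 90.4% and 90.5% in the first-cycle libraries and 88.5% and 89.1% in the second-cycle libraries. The libraries of the cycles did not overlap, but they lay only −1.67 points ± 0.387 apart (exact permutation test, p = 0.333). With each CpG weighted by its reads the difference was −0.764 points ± 1.16. None of the 17 CpGs was called by the quasi-binomial model and 0 had an unadjusted p under 0.05, while limma called CpG2. CpG2 had 98.7% and 94.5% after the first and 93.7% and 89.8% after the second cycle, the largest difference in CNS1 (−4.83 points ± 4.03, adjusted p = 0.25, and 0.0388 with limma). The opposite end of the range was CpG12, with 2.07 points ± 1.02. In exon 1 the mean over the 6 CpGs tested was 86.9% and 94.4% after the first and 88.0% and 88.5% after the second cycle, so that both second-cycle libraries lay between the first-cycle libraries. The difference was −2.42 points ± 5.32, but −6.18 points without first-cycle replicate 1 and 1.33 points without first-cycle replicate 2. CpG28 at the end of exon 1 had 63.3% and 91.2% after the first and 76.9% and 85.8% after the second cycle. It had 199 to 1947 reads in these libraries. CpG27 had 86.6% and 92.04% and then 75.1% and 84.2% (−9.66 points ± 7.49, adjusted p = 0.275).

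The promoter had the largest difference towards a higher mean after the second cycle. Its mean was 54.0% and 57.5% over 4 CpGs in the first-cycle libraries and 61.4% and 68.4% in the second-cycle libraries. These values did not overlap, and their means were 9.17 points ± 5.59 apart (p = 0.333, exact permutation test), or 5.64 points without second-cycle replicate 2, but none of the 4 CpGs was called by the quasi-binomial model or by limma. CpG19 had 52.5% and 56.7% and then 65.1% and 70.1% (13.02 points ± 4.66, adjusted p = 0.108). CpG20 had 59.0% and 62.4% and then 70.3% and 76.6% (12.7 points ± 5.04, adjusted p = 0.108). These were the 2 CpGs with an unadjusted p under 0.05 and a higher level after the second cycle. CpG18 had 71.6% and 75.4% and then 78.7% and 85.7% (8.67 points ± 5.61, adjusted p = 0.25), a difference that rested more on second-cycle replicate 2. CpG21, where the libraries overlapped, differed by 2.25 points ± 7.32.

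Exon 3 showed how little a heavily methylated region moved between the same libraries. Its mean over 5 CpGs was 95.5% and 95.9% after the first and 95.3% and 96.1% after the second cycle (−0.0161 points ± 0.665, exact permutation test, p = 1). It was −0.44 points without second-cycle replicate 2 and 0.408 points without second-cycle replicate 1. The single CpGs lay between −0.78 and 1.42 points, 0 of 5 were called by either tool, and 0 had an unadjusted p under 0.05. In the 5′ edge of CNS2 the mean of CpGs 48 to 51 was 39.7% and 39.3% after the first and 35.4% and 35.0% after the second cycle (−4.23 points ± 0.391, exact permutation test, p = 0.333), and −3.51 points ± 2.9 when weighted by reads. CpG48 had the highest level there, with 88.7% and 80.6% and then 76.7% and 72.1% (−10.2 points ± 6.63, adjusted p = 0.128). In the core of CNS2 (CpGs 52 to 61) the means of the libraries were 1.06% and 2.18% after the first and 1.04% and 2.77% after the second cycle, so there was almost no methylation that could be lost.

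For 3 features of sequence the called CpGs were counted without a test, and 5 of the 7 lie in the same amplicon. The GC content around a CpG was 46.1% to 56.9% for the 7 called CpGs (median 50.98%) and 39.2% to 62.7% for the other 53 (median 50.98%). With A or T on 0 sides of the CpG 2 of 11 CpGs were called, on 1 side 3 of 31 and on 2 sides 2 of 18. With 0 to 1 other CpGs within 50 bp, 3 of 18 CpGs were called, with 2 others 3 of 14, and with 3 to 9 others 1 of 28.

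The CpGs of HSII were already lower in first-cycle TET iTKO cells than in naïve cells of WT mice. This comparison differs in genotype as well as in culture, which cannot be told apart. Against the naïve cells, the first-cycle TET iTKO cells had 5 of 54 CpGs called lower (9.26%) and 0 called higher (0%) by the quasi-binomial model, with 9 lower and 2 higher at an unadjusted p under 0.05 and 5 lower and 0 higher with limma. The 5 were again CpGs 38 to 42. The mean of the 3′ region of HSII was 90.7%, 90.3% and 90.9% in the naïve libraries, all above the first-cycle libraries, with a difference between the means of −15.3 points ± 2.65 (n = 3 and n = 2, two-sided p = 0.2 in an exact permutation test). These comparisons share the first-cycle libraries, so their values are only set side by side. The difference to naïve cells was −11.6 points at CpG38, −12.2 points at CpG40 and −13.5 points at CpG42. It was −18.9 points at CpG39 and −20.4 points at CpG41 (adjusted p = 0.00774 for each). In points it was nearer to 0 than between the cycles at each of the 5 CpGs. In log odds the differences to naïve cells were −1.46, −0.844, −1.49, −1.66 and −1.45 at CpGs 38 to 42. Between the cycles they were −1.61, −1.21, −1.60, −1.65 and −1.86 in the same order. The TET iTKO level after the first cycle was 83.1% of the level of WT naïve cells over the amplicon, with 80.8% and 85.5% as the lowest and highest over the pairs of libraries. Whether these differences were smaller than those between the cycles was not tested. Without first-cycle replicate 2 only CpG39 of these 5 was called against naïve cells, so the count then was 1, and with a minimum of 500 reads no CpG of HSII could be tested, because naïve replicate 2 had 215 to 225 reads there. With a block for the replicate number 0 CpGs were called (smallest adjusted p = 0.624). CNS1 had 92.7% ± 0.55 (SD, n = 3) in WT naïve cells and 90.5% ± 0.0513 (n = 2) and 88.8% ± 0.384 (n = 2) in first-cycle and second-cycle TET iTKO cells, and exon 3 had 95.9% ± 0.348, 95.7% ± 0.287 and 95.7% ± 0.6 in the same order.

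**Figure D2:**
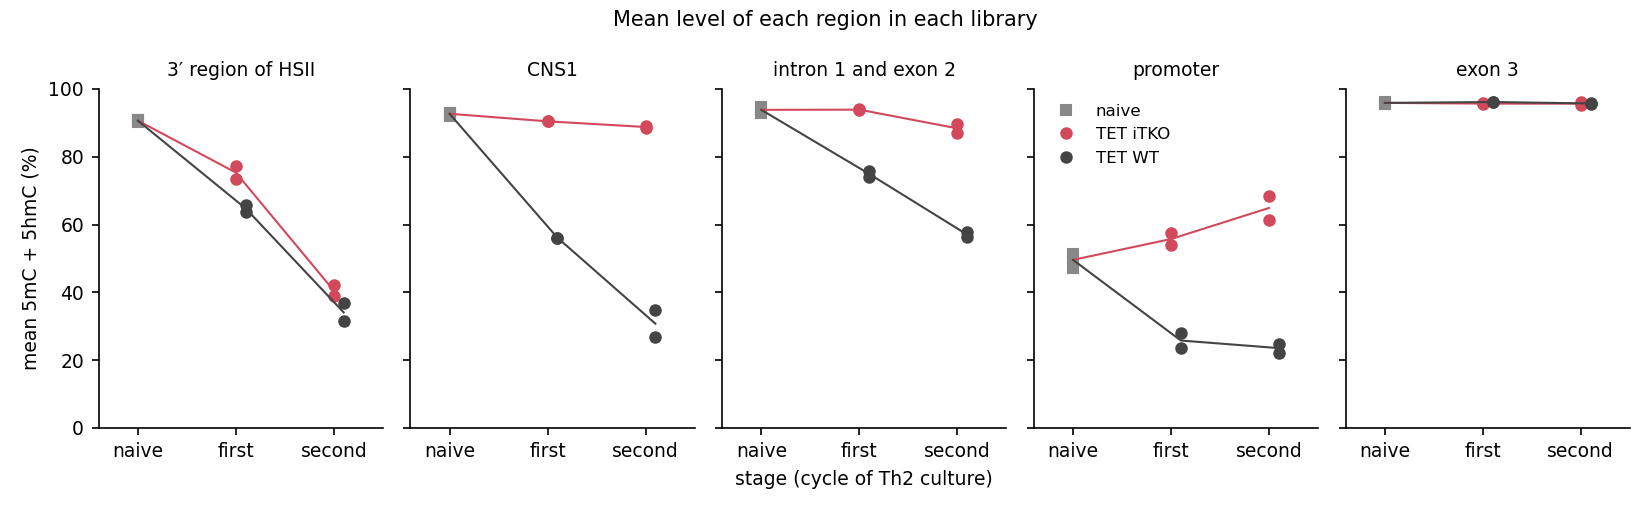
Mean 5mC + 5hmC (percent, vertical axis) of 5 regions in naïve cells and after the first and second cycles of Th2 culture (horizontal axis), in TET iTKO cells (red) and TET WT cells (black). Points are libraries and lines join the means of a genotype, both drawn from the same WT naïve libraries (grey). In the 3′ region of HSII both genotypes are lower after the second than after the first cycle, and in CNS1 the TET iTKO libraries stay at 88.5% or above.

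In TET WT cells the HSII amplicon lost a similar share between the cycles. The mean over CpGs 38 to 42 was 65.9% and 63.6% in the first-cycle and 36.7% and 31.4% in the second-cycle libraries of TET WT cells, a decrease by 30.7 points ± 4.08, beside the decrease by 34.8 points ± 3.54 in TET iTKO cells. The level left was 52.6% of that after the first cycle in TET WT and 53.7% in TET iTKO cells, and the lowest to highest pairs of libraries, 47.7% to 57.7% and 50.3% to 57.4%, overlapped almost fully. The difference between the changes was −4.16 points ± 5.40. In the test of this difference on the log-odds scale, 0 of 60 CpGs were called by the quasi-binomial model (0%, smallest adjusted p = 0.162), 16 had an unadjusted p under 0.05, and limma called 0. For the 5 CpGs of HSII the difference lay between −0.794 at CpG42 and 0.16 at CpG39. The 95% interval was −0.816 to 0.569 at CpG38 and −1.54 to −0.0507 at CpG42 (adjusted p = 0.169), where the TET iTKO change of −41.1 points stood beside −25.9 points in TET WT cells. These intervals are wide, so the changes cannot be called equal.

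In CNS1, exon 1, intron 1 with exon 2 and the 5′ edge of CNS2 the mean decreased more in TET WT cells, but no CpG passed the threshold in the test of the difference with 2 libraries a group. In the promoter the TET WT libraries had 23.7% and 27.9% and then 24.9% and 22.2%, which overlap (−2.24 points ± 3.50, exact permutation test, p = 0.667), beside 9.17 points ± 5.59 in TET iTKO cells. In CNS1 the single CpGs changed by −30.1 to −18.0 points in TET WT cells and by −4.83 to 2.07 points in TET iTKO cells, and the difference between the mean changes was 23.7 points ± 5.67. At all 17 the change in log odds was less negative, or positive, in TET iTKO cells, and 12 of them had an unadjusted p under 0.05. Over all 60 CpGs tested the difference had this direction at 47 and the other at 12, so the direction was not particular to CNS1. For intron 1 and exon 2 the mean changes were −5.51 points in TET iTKO and −17.9 points in TET WT cells, a difference of 12.4 points ± 2.52. CpG32, called in TET iTKO cells, changed by −12.9 points there and by −28.5 points in TET WT cells, and CpG36 by −14.3 and −21.9 points. The difference was not called at either (adjusted p = 0.772 and 0.796). Without TET iTKO first-cycle replicate 2, CpG28 was called, the only such case among the libraries left out in turn.

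**Figure D3:**
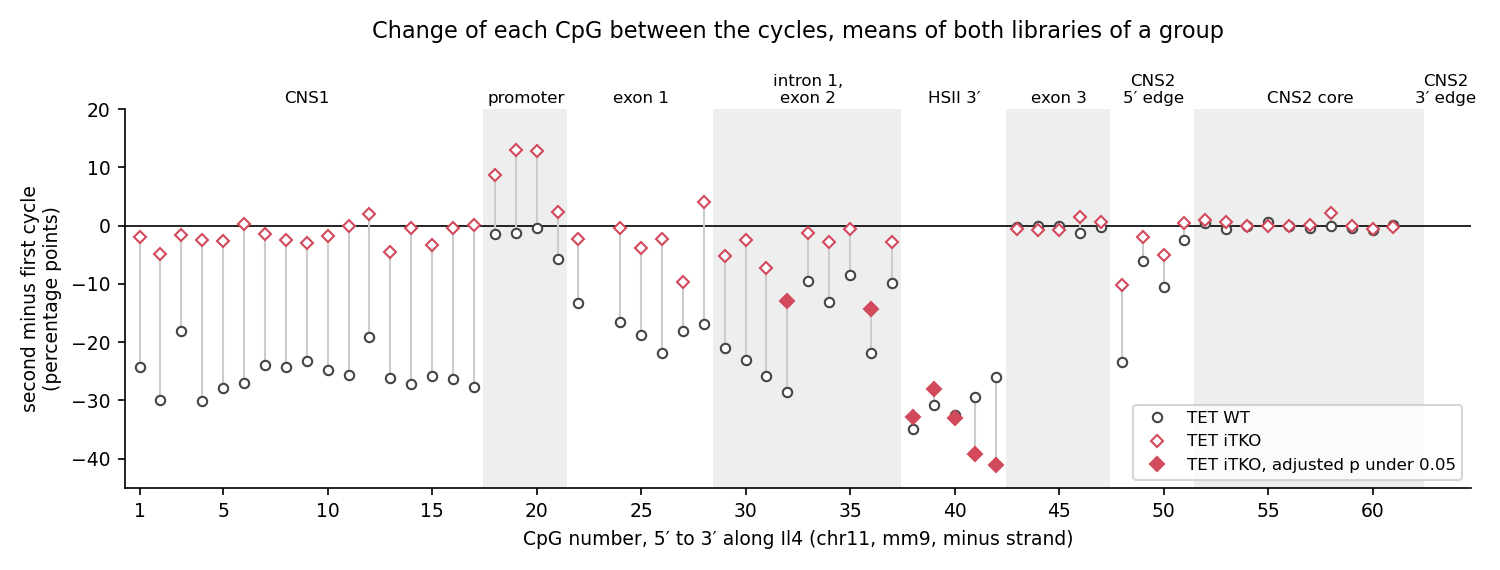
Change in 5mC + 5hmC from the first to the second cycle (percentage points, vertical axis) at the 60 CpGs tested (horizontal axis, CpG number), as the difference between the means of 2 libraries each. Circles are TET WT cells and diamonds TET iTKO cells, the latter filled where adjusted p was under 0.05, and grey lines join both values of a CpG. In CNS1 the TET WT values are −30.1 to −18.0 points and the TET iTKO values −4.83 to 2.07 points, and in the 3′ region of HSII both genotypes are at −25.9 points or below.

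With the WT libraries of the TDG line added to those of the TET line, a comparison added after seeing the data, the change between the cycles differed at 14 of 46 CpGs (30.4%, smallest adjusted p = 0.0243). At all 14 the change was less negative or more positive in TET iTKO cells, a direction found at 39 of the 46 CpGs tested. An unadjusted p under 0.05 was found at 21 CpGs. CNS1 held 11 of the 14 called among its 17 CpGs, the promoter 2 among 4 and exon 1 a single one among 6. In HSII none of the 5 CpGs passed, even before adjustment, with differences in log odds from −0.308 to 0.292. The number of calls depended on single libraries: it was 0 without TET iTKO first-cycle replicate 1, 1 without first-cycle replicate 2 and 0 without second-cycle replicate 2, although 14, 18 and 12 CpGs then had an unadjusted p under 0.05. It was also 0 with only the compared groups in the fit, where the smallest adjusted p was 0.0504, and 0 of 27 with a minimum of 500 reads, while limma called 19. With separate terms for each WT line and their changes averaged, 20 were called, the 14 among them (smallest adjusted p = 0.00701).

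In the TDG line the HSII mean fell from 68.8% ± 0.26 to 26.2% ± 2.76 in WT and from 68.4% ± 2.06 to 29.3% ± 0.755 in TDG iKO cells (SD, n = 2 libraries each), so that 38.1% and 42.9% of the first-cycle level was left. Those shares were lower than the 50.3% to 57.4% over the pairs of TET iTKO libraries. They were also lower than the 47.7% to 57.7% over the pairs of TET WT libraries. These differences between the lines were not tested. In PB-seq of first-cycle cells, which reads 5fC and 5caC as T, the mean over CpGs 38 to 42 was 0.342% in WT and 0.423% in TDG iKO cells with *CreERT2*, beside 0.466% and 2.19% over CNS1. For first-cycle BS-seq of WT and TDG iKO cells the labels give 3 replicates, of which replicates 2 and 3 were summed as 1 library. The labelled PB-seq replicates of each of these groups were also taken as 1 library. No PB-seq sample of TET iTKO cells was analysed here.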

How the data were processed

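The authors mapped BS-seq reads to mm9 with BSMAP and deposited unnormalized counts per cytosine, of C and of C plus T, capped at an upper limit. Levels, tests and intervals were computed here from these counts. Amplicons were placed by their primers. CpGs with at least 100 reads in every library compared were fitted with a quasi-binomial regression on the counts of 22 libraries in 10 groups, with a shared variance between libraries and a dispersion moderated with limma 3.58.1 (R 4.3.3), a two-sided F-test and Benjamini-Hochberg adjustment over the CpGs of the comparison. The script was tested on simulated data. Regions are unweighted means over CpGs, with exact permutation tests (scipy 1.17.1), and the error after ± of a difference is the root of the summed squares of the SDs. As an alternative, limma was run on log2 ratios of C and T with 1 added. PB-seq levels have C reads multiplied by 0.5. Named were the called CpGs, CpGs 37 to 43, 18 to 21, 27 to 29 and 48 to 51, in each amplicon those with the largest fall and rise, and the called CpGs with the largest rise and fall in other comparisons. Members and lists were chosen with earlier results of these data known. The labels name no animals, so p-values measure a spread between libraries. In the model this spread was shared over all 22 libraries rather than taken from the 4 TET iTKO libraries alone. Those titled only as Th2 varied widely, with an SD of 9.14 for the HSII mean (n = 3). With only TET iTKO libraries in the same model, CpGs 38 to 42 had adjusted p from 0.00427 to 0.0106. Permutation tests used the compared libraries alone.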

Additional observations from a re-analysis of the deposited data

Results flagged for a closer look

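The comparison below was added once the data had been seen. The change between the cycles differed between TET iTKO cells and WT cells of both lines at 14 of 46 CpGs by a test of the difference itself. Among the CpGs named by rule, the largest difference in log odds was at CpG28 (2.09, adjusted p = 0.0243), whose first-cycle TET iTKO libraries had 63.3% and 91.2%. In CNS1, CpG6 (adjusted p = 0.0246), CpG12 (adjusted p = 0.0243) and CpG17 (adjusted p = 0.0243) were called. Their changes in TET iTKO cells were 0.276, 2.07 and 0.162 points, beside −39.1, −29.3 and −35.7 points in WT cells. In the promoter, CpG19 (adjusted p = 0.0474) and CpG20 (adjusted p = 0.0323) were called, with 13.02 and 12.7 points in TET iTKO cells and −4.06 and −5.98 points in WT cells of both lines. In the WT cells of the TET line alone CpG19 had 15.6% and 18.9% and then 16.3% and 15.5%, and CpG20 had 29.7% and 37.4% and then 36.996% and 29.3%, so the cycles overlapped at both. Against the TET line alone 0 of 60 CpGs were called (smallest adjusted p = 0.162). The calls were lost without TET iTKO first-cycle replicate 1 and without second-cycle replicate 2, where 0 CpGs were called and 14 and 12 had an unadjusted p under 0.05. Only CpG28 was called without first-cycle replicate 2, and 0 CpGs were called with 500 reads or with only the compared groups in the fit. With limma CpG19 was not called. CpG6 and CpG19 were also not called without TET iTKO second-cycle replicate 1. Without any single TDG WT library, or without TET WT second-cycle replicate 2, CpG19 was not called either. CpG20 was not called without first-cycle replicate 1 or 2 of TDG WT cells, or without TET WT second-cycle replicate 2. Some of the WT libraries came from the TDG line. With separate terms for each line, 20 CpGs were called, the 14 among them.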

How the results depend on the processing

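The 7 CpGs called lower between the cycles in TET iTKO cells were called with 20 reads, with 500 reads and with a minimum change of 10 points, 6 of them with only the compared groups in the fit, and 9 CpGs, including the 7, with limma. Leaving out each library in turn gave 5 to 6, and CpGs 38 to 42 were among them each time. The lone library of a group was then assumed to vary like the other groups. Counts of CpGs called higher were 0 under every setting.

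The deviations of same-numbered libraries correlated at 0.0807 between the cycles of TET iTKO cells and at −0.000938 between naïve and first-cycle cells. Whether same-numbered libraries share a culture is not known, and both replicate 2 libraries of TET iTKO cells were the deeper ones by the median. With a block for the replicate number, fitted to the compared groups alone, 0 CpGs were called between the cycles (smallest adjusted p = 0.315, 7 with an unadjusted p under 0.05), 0 against naïve cells and 0 in the difference to TET WT cells. The mean of the differences within a number was −34.8 points ± 5.00 for HSII.

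Against naïve cells the count was 0 of 18 with 500 reads, where no CpG of HSII was left, and 1 to 5 without single libraries. For the difference to TET WT cells it was 0 to 1 without single libraries. For the difference to WT cells of both lines it was 0 with 500 reads, 0 with only the compared groups, 0 to 19 without single libraries and 20 with separate terms for each line; these settings were chosen after seeing the data, and the cause was not tested. Weighting by reads moved the mean change of CNS1 to −0.764 points and that of the 5′ edge of CNS2 to −3.51 points. The HSII mean change was −36.7 to −33.0 points without single libraries, and that of exon 1 −6.18 to 1.33 points. Among the CpGs tested, the widest interval of a single value was in exon 1, at up to 11.9 points.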
